A study of Mus musculus with 24 samples.

Results

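Egr1, Egr2, Egr3, Nr4a1, Nr4a2 and Nr4a3 are 6 transcription factors of the mouse, and their levels were followed over 24 Affymetrix arrays of MLO-Y4 cells exposed to fluid flow or kept static. A probe set, the group of short probes on the array that reports one transcript, was taken as theirs when its annotation gave exactly 1 gene symbol and that symbol was one of the 6. This rule found 9 probe sets among 20380 with 1 symbol, and gave 6 of the 12393 genes measured. Egr1, Egr3 and Nr4a1 each had 1 probe set and Egr2, Nr4a2 and Nr4a3 each had 2, of which the one with the higher mean over all arrays represents the gene. All values are log2 units from the authors' normalisation, so that a difference of 1 is a 2-fold difference. Levels of different probe sets are not compared, because each probe set has its own probes.

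MLO-Y4 is a line with features of osteocytes, established from mice that carried a viral T antigen driven by the osteocalcin promoter, and the labels call its background mixed, from C57B1/6, BALB/c and DBA2. They were grown on collagen-coated glass. The 12 arrays labelled flow came from cells exposed for 2 h to oscillating flow at a shear stress of 10 dyn/cm2 and 1 Hz, and the 12 labelled sham came from cells in chambers without flow. Both kinds were collected 0, 2, 8 or 24 h afterwards, with 3 arrays for each of the 8 combinations. The question is whether, and when, RNA of these early response genes differed between flow and sham. Nothing in the labels says that the 3 arrays of a group are separate cultures, so a p-value here reflects the spread from array to array, which may be technical. In RNA from whole cultures, fewer cells that express a gene and less RNA per cell cannot be told apart.

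Egr proteins are zinc finger transcription factors that bind GC-rich sites, and Nr4a proteins are nuclear receptors that act without a known natural ligand. Genes of both families are immediate-early genes: their transcription starts within minutes of a stimulus from factors already in the cell, such as SRF with its cofactors and CREB, and their RNA is short-lived. In bone cells both families are known to respond to parathyroid hormone, prostaglandins and mechanical load. Egr1 and Egr2 are held in check by the corepressors Nab1 and Nab2, and Nr4a1 and Nr4a2 can bind DNA together with retinoid X receptors.

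Promoters are shown for the 4 members that had a usable window, and those of Egr1 and Egr3 were not examined. The windows were searched for the letters of sites bound by these upstream factors. Each window holds the 250 bases before a transcription start in RefSeq, build GRCm38.p6, read 5′ to 3′ on the strand of the gene. Capitals mark TGACG on either strand (printed as CGTCA when it lies on the other strand), the core of sites bound by CREB and related factors, and the CArG box, the site bound by SRF.
Nr4a1, chr15:101266596-101266845, plus strand: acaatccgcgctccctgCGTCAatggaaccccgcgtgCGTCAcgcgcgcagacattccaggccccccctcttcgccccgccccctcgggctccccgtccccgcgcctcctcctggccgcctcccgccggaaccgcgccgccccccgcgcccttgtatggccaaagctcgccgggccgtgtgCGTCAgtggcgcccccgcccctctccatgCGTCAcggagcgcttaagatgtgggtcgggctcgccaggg
Nr4a2, chr2:57124004-57124253, minus strand: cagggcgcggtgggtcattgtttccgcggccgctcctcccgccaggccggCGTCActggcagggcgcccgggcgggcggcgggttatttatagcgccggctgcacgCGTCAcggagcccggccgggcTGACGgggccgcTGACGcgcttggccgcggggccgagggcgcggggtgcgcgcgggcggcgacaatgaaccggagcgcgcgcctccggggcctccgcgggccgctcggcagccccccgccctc
Nr4a3, chr4:48045055-48045304, plus strand: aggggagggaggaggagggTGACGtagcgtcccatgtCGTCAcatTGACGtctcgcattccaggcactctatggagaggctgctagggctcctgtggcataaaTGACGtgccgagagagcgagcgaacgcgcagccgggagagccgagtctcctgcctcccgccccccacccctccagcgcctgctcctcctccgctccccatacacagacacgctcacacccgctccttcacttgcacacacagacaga
Egr2, chr10:67537619-67537868, plus strand: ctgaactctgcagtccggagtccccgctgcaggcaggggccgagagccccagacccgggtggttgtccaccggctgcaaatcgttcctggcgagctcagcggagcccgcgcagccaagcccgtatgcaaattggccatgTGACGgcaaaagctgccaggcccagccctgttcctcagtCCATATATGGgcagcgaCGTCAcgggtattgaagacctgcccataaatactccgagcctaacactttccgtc

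TGACG occurred 4 times in each of the Nr4a1, Nr4a2 and Nr4a3 windows, whereas 17.8% of all 32851 windows held it at all and 0.688% held it 3 or more times. It occurred 2 times in the Egr2 window, which also held a CArG box. A CArG box was found in 1.47% of all windows. Of 5 Egr2 windows, which differ in the start they precede, 4 held one, but 3 of these windows overlap and hold the same box. GCGGGGGCG, a form of the site that Egr proteins bind, was found 1 time, on the other strand of the Nr4a1 window, and in 2.57% of all windows. The full site TGACGTCA (1.55% of windows), the Egr site GCGTGGGCG (0.536%) and AAAGGTCA, the site that an Nr4a monomer binds (1.34%), were in none of the windows of these 4 members. A match is a description of the letters and does not show that a factor bound there.

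Likeness among the arrays did not always follow their labels, and this bears on every value that follows. Over all genes 16 of 24 arrays had an array of their own label as the nearest, and for 6 of the 8 labels the 3 arrays were spread over several of 3 clusters. By the order of the deposited columns, the nearest array was the neighbour in the column pair (1 and 2, 3 and 4, and so on) for 22 arrays. The clusters recurred every 8 columns: 12 arrays held places 1 to 4 of each block of 8, 6 arrays held places 5 and 6, and 6 held places 7 and 8. No condition was inferred from column order, and groups are called by their labels. The osteocyte gene Gja1 lay between 12.89 and 13.09 on all arrays and Pdpn between 12.20 and 12.77, whereas Dmp1 (2.66 to 3.0) and Sost (4.22 to 4.99), which mark mature osteocytes, stayed under 6 on every array. Of 9 osteocyte and osteoblast markers 4 were at 6 or more on all arrays and 5 were under 6 on all. Of 15 markers of other cell types 13 were under 6 on all arrays. The other 2 belong to the macrophage and osteoclast markers: Ctsk lay between 11.34 and 11.78, and Csf1r was at 6 or more on 12 arrays.

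Across the 24 arrays 4 members varied more than nearly all other probe sets and 2 barely varied. Egr1 spanned 4.56 log2 units and Egr2 3.99, Nr4a2 spanned 1.94 and Nr4a1 1.76, whereas a range of 1 or more was found for 7.54% of all genes. The standard deviation of Egr1 over the arrays stood at percentile 99.98 of all probe sets with 1 symbol and that of Nr4a1 at percentile 98.4. Egr3 stayed between 6.49 and 6.78, with a standard deviation at percentile 6.48, and Nr4a3 stayed between 6.40 and 6.79, at percentile 19.8. Egr2 was a dim signal, at 6 or more on 2 arrays only, and the other 5 members were at 6 or more on every array. Of these, Egr3 (median 6.63) and Nr4a3 (median 6.61) lay a little under the array medians, which ran from 6.71 to 6.80.

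**Figure D1:**
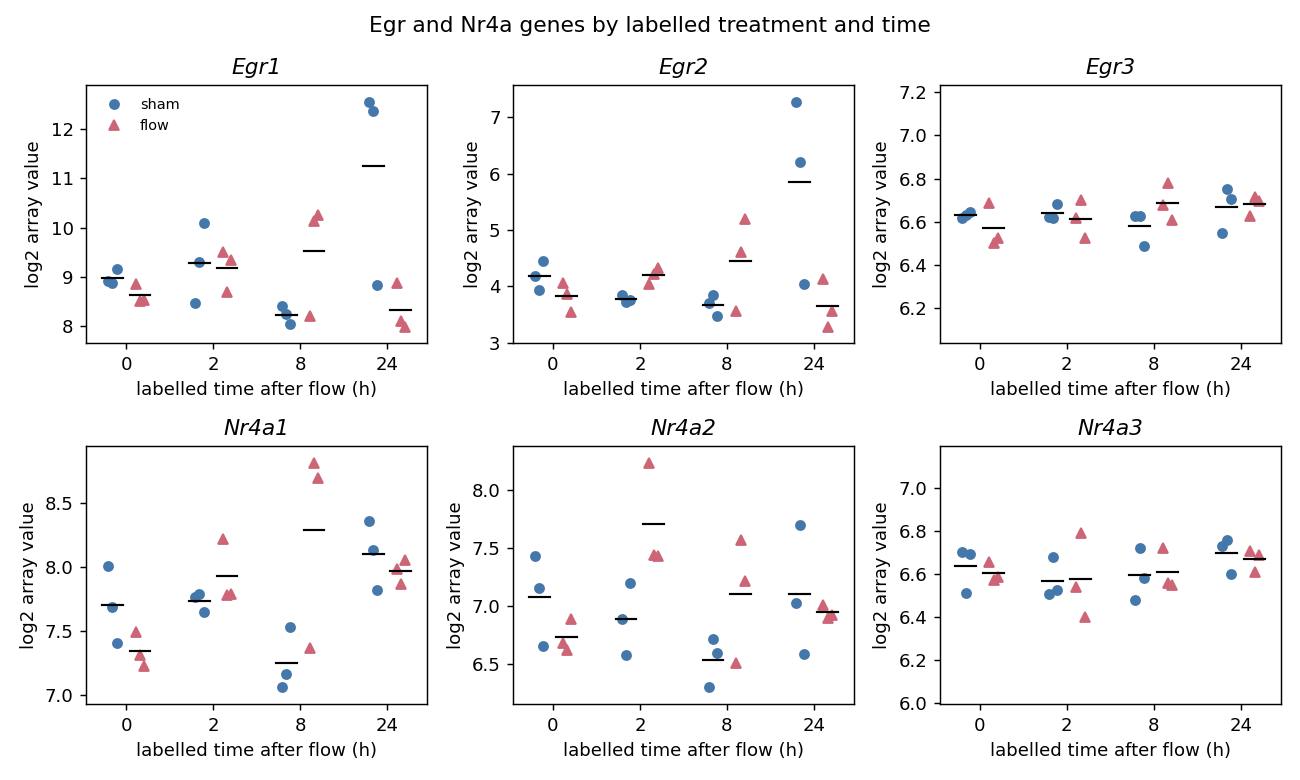
Log2 array value (y axis) of each member on the 24 arrays by labelled time after flow in hours (x axis), where circles are sham arrays, triangles flow arrays and bars the group means. Egr1 and Egr2 were highest on the same 2 arrays labelled sham 24 h, Nr4a1 was highest on 2 arrays labelled flow 8 h, Nr4a2 was highest on 1 array labelled flow 2 h, and Egr3 and Nr4a3 each stayed within 0.39 units.

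No member passed the test at any time when arrays were weighted equally. With limma and Benjamini-Hochberg adjustment over all genes, 0 of 6 members and 0% of all genes were called at 0, 2, 8 and 24 h. With array weights, which give less weight to arrays unlike their group, 1, 1, 3 and 2 members were called at these times, along with 2330, 2312, 3151 and 2361 genes in all. The number of members with an unadjusted p under 0.05 was 0, 1, 1 and 2, where 14%, 13.6%, 14.4% and 15.5% of all genes had one. The mean under flow was the higher for 0, 4, 6 and 1 of the 6 members at these times, where 53.1%, 50.5%, 52.6% and 54.4% of all genes had the higher mean. Groups did not overlap for 1, 2, 0 and 0 members, where 19.1%, 18.4%, 12.9% and 19.8% of all genes had groups apart. A difference of at least 2-fold was measured for Egr1 and Nr4a1 at 8 h, both higher under flow (0.145% of all genes), and for Egr1 and Egr2 at 24 h, both lower (0.29%). The median difference of the members was -0.35, 0.10, 0.67 and -0.15, against a median of between 0.00 and 0.01 for all genes at each time. Members thus stood mostly lower under flow at 0 h and higher at 8 h as measured means, with no member past the threshold.

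Egr1 encodes the best known early growth response factor, which is induced by serum, growth factors and stretch in many cells. On the arrays labelled sham 24 h it was at 12.55, 12.37 and 8.84, and on those labelled flow 24 h at 8.88, 8.11 and 7.99. The first 2 sham arrays stood far above every other array of the series, while the third lay just under the highest flow array, so that the groups overlapped. The means were 11.25 ± 2.10 for sham and 8.33 ± 0.48 for flow (SD, n = 3 each), a difference of -2.93 (SE 0.68, 95% confidence interval -4.35 to -1.51) with an adjusted p of 0.290 in limma. Without sham 24 h replicates 1 and 2 the difference was -0.51 (adjusted p = 0.994), which compares 3 flow arrays with 1 sham array. Without replicate 3 it was -4.14 (adjusted p = 6.88e-05), so that 1 sham array decided whether the gene was called.

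At 8 h Egr1 was at 8.21, 10.13 and 10.25 on the arrays labelled flow and at 8.40, 8.25 and 8.05 on those labelled sham. Flow replicates 2 and 3 stood above all sham arrays and replicate 1 among them. The difference of 1.30 (SE 0.68) had an adjusted p of 0.386, and without flow 8 h replicates 2 and 3 it was -0.02. At 2 h the values were 9.50, 8.70 and 9.34 under flow and 8.47, 9.31 and 10.09 under sham, a difference of -0.11 (adjusted p = 0.955), and the sham arrays held both the highest and the lowest value. Without sham 2 h replicate 3 the difference was 0.29. At 0 h all 3 flow arrays (8.85, 8.51 and 8.53) lay below all 3 sham arrays (8.92, 8.87 and 9.15), as was the case for 7.92% of all genes. The difference of -0.35 there had an interval from -1.77 to 1.07, set by a spread that is shared over all times.

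Egr2, also called Krox20, is known for myelination and acts beside Egr1 in immune and bone cells. It followed the order of Egr1 at the top end, with 7.28, 6.21 and 4.05 on the arrays labelled sham 24 h and 4.13, 3.29 and 3.56 on those labelled flow 24 h. The same sham arrays, replicates 1 and 2, were high, and replicate 3 lay within the flow range. The difference was -2.19 (SE 0.50, 95% confidence interval -3.24 to -1.14) with an adjusted p of 0.290 in limma. It was -0.39 (adjusted p = 0.994) without replicates 1 and 2 and -3.09 (adjusted p = 6.73e-05) without replicate 3. The other probe set of Egr2 was at 7.41, 6.46 and 3.47 on the sham 24 h arrays, so it placed the same arrays high.

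At 8 h Egr2 was at 3.57, 4.60 and 5.20 under flow and at 3.70, 3.84 and 3.48 under sham, a difference of 0.78 (SE 0.50, adjusted p = 0.488). Flow replicates 2 and 3 were again the high arrays, and without them the difference was -0.10. At 2 h all flow arrays (4.04, 4.22 and 4.33) lay above all sham arrays (3.85, 3.73 and 3.76), as was the case for 9.16% of all genes. The difference was 0.42 (adjusted p = 0.710 in limma). By the other, also dim, probe set of Egr2 the groups overlapped, with 3.18, 3.79 and 3.65 under flow and 2.94, 3.12 and 3.67 under sham. Its difference was 0.30 (SE 0.57), so only the representative probe set had the groups apart. At 0 h the representative probe set was at 4.06, 3.86 and 3.55 on the flow arrays and at 4.18, 3.94 and 4.45 on the sham arrays, which overlapped. Outside sham 24 h replicates 1 and 2, Egr2 stayed at 5.20 or below, where the signal is dim.

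Egr3, an early response factor of neurons, muscle spindles and lymphocytes, showed no such range. From 0 to 24 h its difference was -0.06, -0.03, 0.11 and 0.01, with an SE of 0.07 each time. The intervals reached from -0.21 to 0.08 at 0 h and from -0.04 to 0.25 at 8 h, so that a 2-fold difference in array value lay outside them. The only probe set of Egr3 was at a level near the array medians, and whether it could register a change in RNA was not tested. On the sham 24 h arrays where Egr1 and Egr2 were high, Egr3 was at 6.55 and 6.75, which spans most of its own range.

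Nr4a1, also called Nur77, is known for roles in apoptosis and metabolism. On the arrays labelled flow 8 h it was at 7.37, 8.82 and 8.70, and on those labelled sham 8 h at 7.06, 7.16 and 7.53. The highest values of the series were those of flow replicates 2 and 3, as the groups of the plot by label show, and flow replicate 1 lay within the sham range. The means were 8.30 ± 0.80 and 7.25 ± 0.25 (SD, n = 3 each), a difference of 1.04 (SE 0.26, 95% confidence interval 0.505 to 1.58) with an unadjusted p of 0.00063 and an adjusted p of 0.230 in limma. Without flow 8 h replicates 2 and 3 it was 0.12 (adjusted p = 0.990). Without flow 8 h replicate 1 it was 1.50 (adjusted p = 0.000653), and it was also called without sham 8 h replicate 3 (adjusted p = 0.0374).

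At 24 h Nr4a1 was at 8.36, 8.14 and 7.82 on the sham arrays and at 7.99, 7.87 and 8.06 on the flow arrays. Sham 24 h replicates 1 and 2 were above the flow arrays, but by far less than for Egr1, and the difference was -0.14 (SE 0.26). It turned to 0.15 without these 2 arrays. At 2 h the flow arrays were at 8.22, 7.79 and 7.79 and the sham arrays at 7.77, 7.79 and 7.65, a difference of 0.19. At 0 h they were at 7.49, 7.32 and 7.23 under flow and at 8.01, 7.69 and 7.41 under sham, a difference of -0.36, and the groups overlapped at both times.

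Nr4a2, also called Nurr1, is needed by dopamine neurons and is induced by parathyroid hormone in osteoblasts. At 2 h its flow arrays were at 8.23, 7.44 and 7.43 and the sham arrays at 6.89, 6.58 and 7.20, without overlap. The means were 7.70 ± 0.46 and 6.89 ± 0.31 (SD, n = 3 each), a difference of 0.81 (SE 0.28, 95% confidence interval 0.233 to 1.40), which is 1.76-fold, with an adjusted p of 0.345 in limma. Sham 2 h replicate 3 lay in the cluster of the flow arrays and the other 2 sham arrays in another. Without it the difference was 0.97 and the adjusted p 0.0828, and then label and cluster cannot be told apart at 2 h. The other probe set of Nr4a2 also had all flow arrays above all sham arrays at 2 h, with a difference of 0.48 (SE 0.19, adjusted p = 0.360 over all probe sets).

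At the other times the groups of Nr4a2 overlapped. At 8 h it was at 6.51, 7.57 and 7.22 under flow and at 6.30, 6.71 and 6.60 under sham, a difference of 0.56 (SE 0.28, adjusted p = 0.363) that was -0.03 without flow 8 h replicates 2 and 3. These 2 arrays were thus above the sham arrays for Egr1, Egr2, Nr4a1 and Nr4a2 alike. At 0 h the difference was -0.35, from 6.68, 6.62 and 6.88 under flow and 7.43, 7.15 and 6.66 under sham. At 24 h it was -0.16, from 7.0, 6.90 and 6.93 under flow and 7.02, 7.70 and 6.59 under sham, and it turned to 0.36 without sham 24 h replicates 1 and 2.

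Nr4a3, also called Nor1, completes the family and stayed level by its brighter probe set. In order of time its difference was -0.03, 0.01, 0.02 and -0.03, each with an SE of 0.09, and the intervals reached no further than from -0.22 to 0.20. This probe set too lay near the array medians, and whether it could register a change in RNA was not tested. The other Nr4a3 probe set was dim, between 3.62 and 4.12 on all arrays, and the probe sets correlated by 0.191 over 24 arrays, against 0.944 for the pair of Egr2 and 0.922 for the pair of Nr4a2. Values of Nr4a3 therefore depend on the probe set. By rank the probe sets of a gene correlated by 0.175 for Nr4a3, 0.792 for Egr2 and 0.918 for Nr4a2 (Spearman rho).

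**Figure D2:**
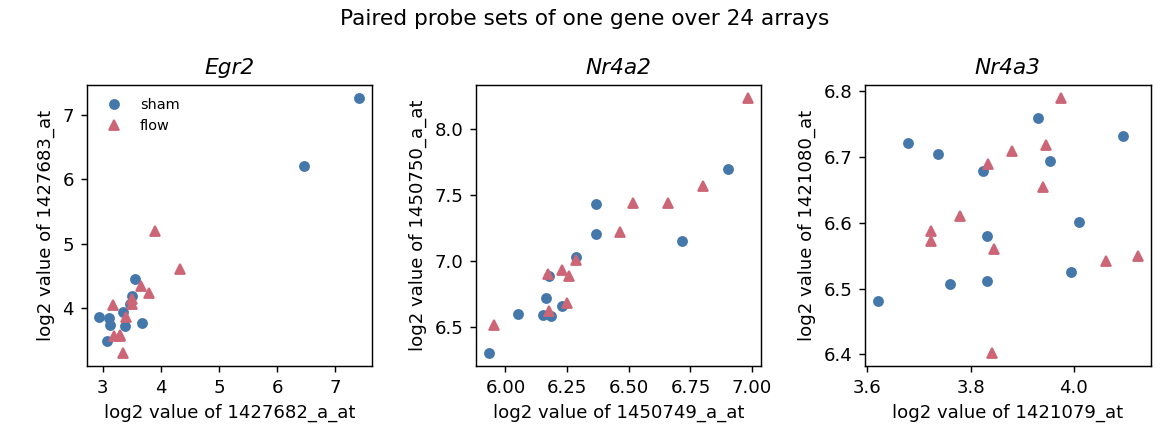
Log2 values of the representative probe set (y axis) against the other probe set (x axis) of Egr2, Nr4a2 and Nr4a3 on the 24 arrays, with circles for sham and triangles for flow. The points rise together for Egr2 (Pearson r 0.944, which 2 arrays stretch) and Nr4a2 (0.922) and scatter for Nr4a3 (0.191).

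**Figure D3:**
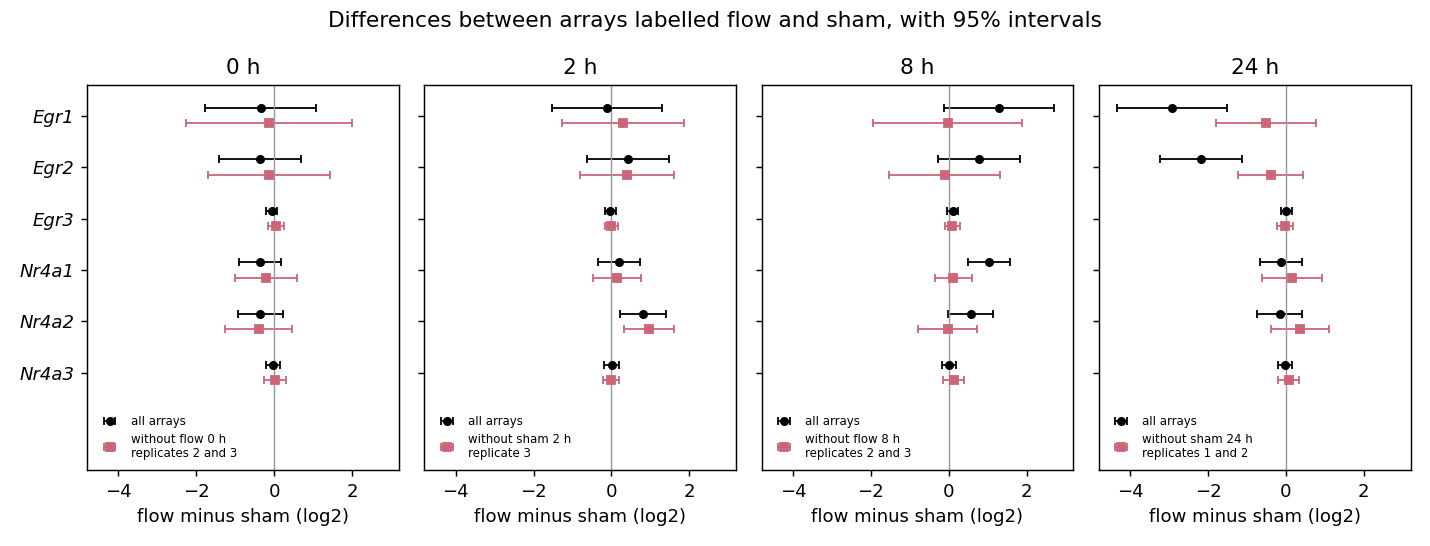
Difference between arrays labelled flow and sham (x axis, log2 units) with 95% confidence intervals for each member (y axis) at 4 labelled times, with all arrays in black circles and without the named arrays in squares. Without the named arrays the 24 h differences were -0.51 for Egr1 and -0.39 for Egr2, those of Egr1, Egr2, Nr4a1 and Nr4a2 at 8 h lay between -0.10 and 0.12, and that of Nr4a2 at 2 h was 0.97, where the sham array left out was the one in the cluster of the flow arrays.

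Tests that join the times called no member when arrays were weighted equally. With array weights 4 members were called in each of these tests except that of the mean over the times, as were between 4675 and 6828 genes. Without flow 8 h replicate 1, the test of flow against sham over the 4 times called 4 members and 1394 genes. In that setting the test of change with time called 4 members and 2045 genes, and that of the 8 labels 3 members and 867 genes. In the moderated F-test of flow against sham over the 4 times, 4 members had an unadjusted p under 0.05, as did 23.3% of all genes, and the lowest adjusted p among members was 0.131 in limma. Whether the difference changed with time gave adjusted p-values of 0.0803 for Egr1, 0.0798 for Egr2, 0.0854 for Nr4a1 and 0.126 for Nr4a2, where 27.3% of all genes had an unadjusted p under 0.05 and 0% were called. Averaged over the times the differences ran from -0.52 for Egr1 to 0.22 for Nr4a2, each with an adjusted p of 0.996, and 0 members had an unadjusted p under 0.05, against 4.79% of all genes. Times among the sham arrays alone called 0 members and 0.412% of all genes, and the 8 labels together called 0 members and 0.662% of all genes. Ordered by mean, neighbouring labels overlapped in 6 of 7 steps for Egr1, the exception being flow 0 h under sham 0 h, and in 7 of 7 steps for each of the other members.

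Set out by deposited column, the high arrays of Egr1, Egr2 and Nr4a1 lay side by side. Columns 17, 18, 19 and 20 hold flow 8 h replicates 2 and 3 and sham 24 h replicates 1 and 2, and all 4 belong to the cluster of 12 arrays. Egr1 was at 10.13, 10.25, 12.55 and 12.37 in these columns and between 7.99 and 10.09 in the other 20. Egr2 was at 4.60, 5.20, 7.28 and 6.21 there and between 3.29 and 4.45 elsewhere. For both genes these 4 columns were the top 4 of 24. Nr4a1 was at 8.82, 8.70, 8.36 and 8.14 there and between 7.06 and 8.22 elsewhere, so that its order within the 4 was turned and 1 other array, flow 2 h replicate 1 in column 10, stood above the lowest of them.

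Nr4a2 was highest outside this run of columns, and its values differed by place in the block of 8. It lay between 6.66 and 8.23 (median 7.32) in the 12 arrays at places 1 to 4, between 6.30 and 7.0 in the 6 arrays at places 5 and 6, and between 6.51 and 6.93 in the 6 at places 7 and 8. The other varying members also had their highest median at places 1 to 4, which include columns 17 to 20. At places 1 to 4, 5 and 6, and 7 and 8 the medians were 9.42, 8.52 and 8.16 for Egr1. They were 4.28, 3.85 and 3.57 for Egr2 and 7.90, 7.27 and 7.78 for Nr4a1. For Nr4a2 the share of variance between columns 8 apart was 59.3% and that between labels 52.2%. The medians for all genes were 47.9% and 41.3%. Both groupings have 8 classes of 3 arrays, so the shares can be set side by side. For Egr1 the labels took 58.4% and the columns 8 apart 40.8%, for Egr2 59.4% and 44.5%, and for Nr4a1 58.5% and 37.3%. Nr4a1 also had 46.8% of its variance between the 3 successive blocks of 8 columns, where the median gene had 6.45%.

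**Figure D4:**
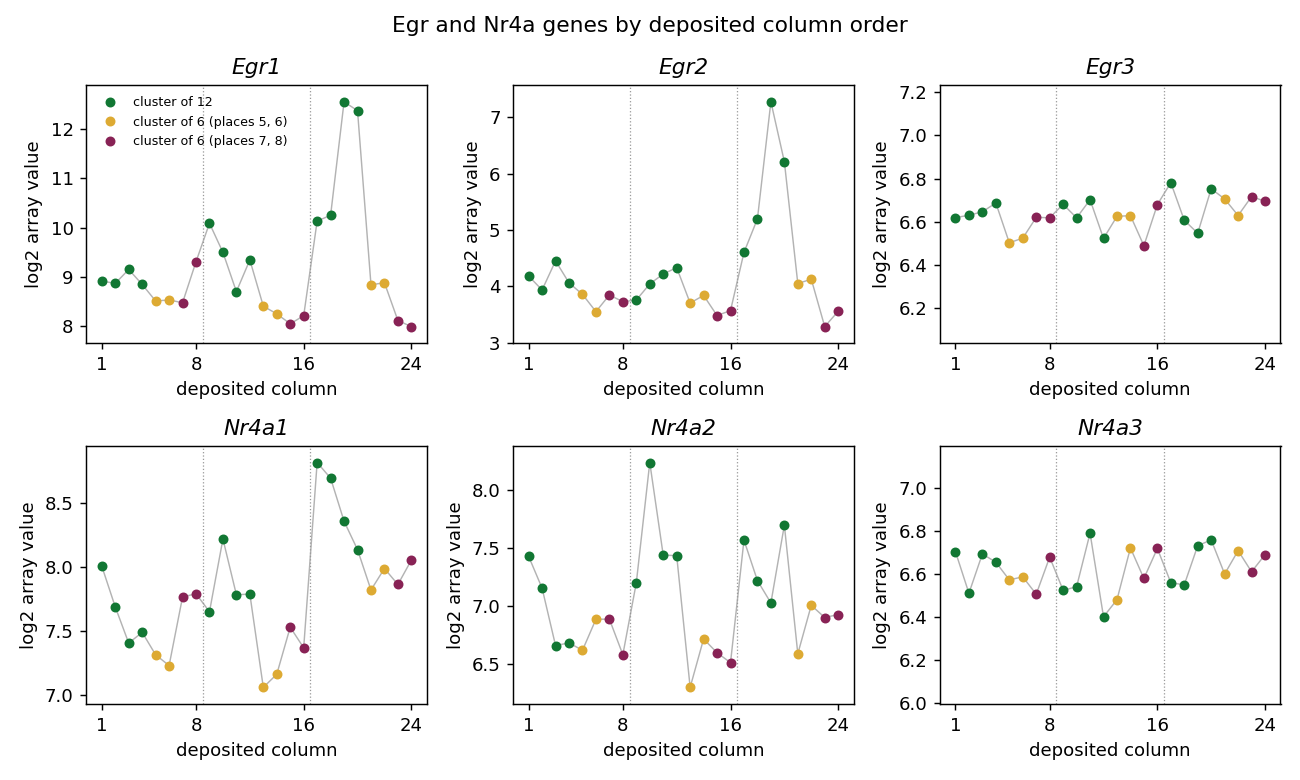
Log2 array value (y axis) of each member by deposited column (x axis, 1 to 24), coloured by cluster of arrays, with dotted lines between blocks of 8 columns. Egr1 and Egr2 peak in columns 17 to 20, Nr4a1 is high from column 17 on, and Egr3 and Nr4a3 are flat. The medians of Egr1, Egr2, Nr4a1 and Nr4a2 are each highest at places 1 to 4 of a block.

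The RNA quality of the sham arrays with high Egr1 and Egr2 lay within the range of the other arrays. Control probe sets near the 3′ and the 5′ end of a transcript differ more when RNA is degraded. Their log2 difference, 3′ minus 5′, ran from -0.196 to -0.0743 for Gapdh and from 0.138 to 0.262 for beta-actin over all arrays. Sham 24 h replicates 1 and 2, with -0.164 and -0.133 for Gapdh and 0.168 and 0.203 for beta-actin, were inside both ranges. With these control differences as covariates the 0 h differences of Egr1, Egr2 and Nr4a2 turned to 0.50, 0.06 and 0.06. At 8 h the differences of Egr1, Egr2 and Nr4a2 were 0.73, 0.50 and 0.27 with these covariates, and at 2 h that of Egr1 was -0.49.

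The genes whose values followed Egr1 most closely were other immediate-early genes. Among 7970 genes at 6 or more on at least 3 arrays, they were Fos (Pearson r 0.954 over 24 arrays), the AP-1 subunit, Zfp36 (0.915), which speeds the decay of short-lived RNA, Btg2 (0.911), which slows the cell cycle, and Ier2 (0.869) and Klf6 (0.865), both transcriptional regulators. Fos was at 9.86 and 9.33 on sham 24 h replicates 1 and 2 and between 5.61 and 8.01 on the other 22 arrays. Without these 2 arrays the coefficient was 0.833 for Fos, 0.787 for Zfp36, 0.653 for Btg2, 0.822 for Ier2 and 0.506 for Klf6. The likeness to Ier2 thus moved least and that to Klf6 most. For Egr2 the nearest genes were Fos (0.927), Egr1 (0.921, and 0.737 without those arrays), Trib1 (0.897), Klf6 (0.892) and Btg2 (0.865).

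The Nr4a genes had other neighbours. Nr4a1 was most like Zxdc (0.817), Artn (0.761), Lmo4 (0.746), Litaf (0.746) and Chrna4 (0.744). Nr4a2 was most like Plau, the urokinase plasminogen activator (0.848), and like Ifna2 (0.832), Bid (0.825), Lactb (0.825) and Tsr2 (0.785). The coefficient of Plau without sham 24 h replicates 1 and 2 was 0.842, so that this likeness did not rest on the arrays that carried Egr1. For the flat members the closest genes reached lower, with Ddx5 at 0.713 for Egr3 and Arhgap27 at 0.684 for Nr4a3. These coefficients describe 24 arrays that share clusters, and each was picked as the highest among the genes compared.

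**Figure D5:**
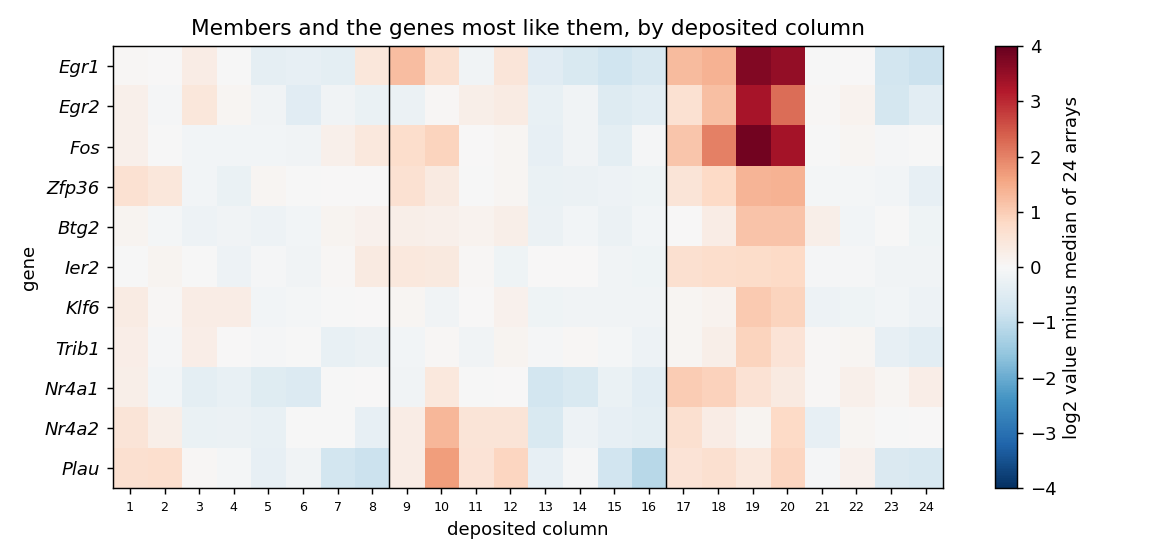
Log2 value minus the gene's median over 24 arrays (colour, from -4 to 4) by deposited column (x axis), with lines between blocks of 8 columns. Rows are Egr1, Egr2, Nr4a1 and Nr4a2, the genes most like Egr1 and Egr2, and Plau, the gene most like Nr4a2. The genes most like Nr4a1 are not shown. Egr1, Egr2 and Fos are highest in columns 19 and 20, and Nr4a2 and Plau are highest in column 10.

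Among members, 18 relations were computed over 4 varying genes within the 3 clusters. In the cluster of 12 arrays Egr1 and Egr2 had a Pearson r of 0.904 (permutation p = 0.00118, adjusted 0.0212) and a Spearman rho of 0.629 (permutation p = 0.0312, adjusted 0.162). Without the 2 arrays farthest from the median of Egr1 the coefficient was 0.456, so that the relation rests on those arrays. They are sham 24 h replicates 1 and 2, in columns 19 and 20. The permutation treats arrays as independent, although for 22 of 24 the nearest array was the neighbour in the column pair, so its p may be too low. No other pair in any cluster had an adjusted permutation p for Pearson's r under 0.137. Egr1 and Nr4a2 had an r of 0.130 in the cluster of 12 arrays.

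Genes around the members in their pathways were likewise not called at any time. Of the Egr relatives and inhibitors Egr4, Wt1, Nab1 and Nab2, 0 of 4 passed the test in either direction, and 3 of 4 had the higher mean under flow at 2 h, 4 at 8 h and 0 at 24 h. Nab2, an Egr corepressor, differed by 0.93 at 2 h (SE 0.44, adjusted p = 0.367 in limma) and by 0.90 at 8 h (adjusted p = 0.360). Nab1 differed by 0.40 at 2 h with overlapping groups (adjusted p = 0.345), and by -0.37 at 24 h, where the groups did not overlap (adjusted p = 0.290). The retinoid X receptors, partners of Nr4a1 and Nr4a2, had 0 of 3 called, with Rxrg at 0.41 (adjusted p = 0.241) and Rxrb at -0.28 (adjusted p = 0.334) at 8 h.

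Of 16 upstream regulators, the SRF, CREB and MEF2 families with their cofactors, 14 were measured and 0 were called. At 0 h Mef2a, a factor of calcium-driven transcription, differed by -0.49 (SE 0.13) and Crem, of the CREB family, by 0.84 (SE 0.26), each at an adjusted p of 0.218 in limma. For the 2 h arrays, Srf, the factor that binds CArG boxes, differed by 0.49 without overlap of the groups (adjusted p = 0.346). Its cofactor Elk3 differed by -0.27 there (adjusted p = 0.345). The median difference of these 14 genes lay between -0.04 and 0.06 over the 4 times.

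Of 34 other immediate-early genes 32 were measured, and most had the lower mean under flow at 0 and 24 h and the higher mean at 2 and 8 h. The mean was higher under flow for 6, 21, 25 and 2 of the 32 at the successive times, and 0 were called at any time. At 24 h, 20 of 32 were lower under flow at an unadjusted p under 0.05, where 5.70% of all genes were, with a median difference of -0.60. At 8 h the mean was higher under flow for 25 of 32 with all arrays and for 14 without flow 8 h replicates 2 and 3, where the median difference went from 0.18 to -0.11 and 0 were higher at an unadjusted p under 0.05. At 0 h the median was -0.18, and -0.04 without flow 0 h replicates 2 and 3. The smallest p-values at 24 h were those of Btg2 (-0.92, SE 0.16, adjusted p = 0.164 in limma) and Ccn1, a matricellular protein (-1.42, SE 0.32, adjusted p = 0.290). Without sham 24 h replicates 1 and 2 the median was -0.14, and 1 of 32 was lower at an unadjusted p under 0.05. At 2 h 5 of 32 were higher at an unadjusted p under 0.05 (5.99% of all genes). Among them were Klf10 at 0.87 and Gadd45b, a stress response gene, at 1.14, each with an adjusted p of 0.345 in limma. Without sham 2 h replicate 3 the mean was higher for 25 of 32, and 8 were higher at an unadjusted p under 0.05 (9.74% of all genes). The median difference at 2 h then went from 0.12 to 0.30, but in that setting label and cluster cannot be told apart. At 8 h 3 of 32 were higher (6.63% of all genes), with Rgs2, which damps G protein signals, at 1.54 (adjusted p = 0.239) and Junb at 0.58 (adjusted p = 0.322).

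Of 12 genes known for Egr sites in their promoters 11 were measured and 0 were called. The mean was higher under flow for 3, 10, 7 and 2 of the 11 at the successive times. F3, tissue factor, followed Egr1 in sign at 0, 8 and 24 h, with -0.71, 0.71 and -0.68 and adjusted p-values of 0.303, 0.304 and 0.306 in limma. Cd44, a hyaluronan receptor, differed by 0.47 at 2 h (adjusted p = 0.345) and by -0.42 at 24 h (adjusted p = 0.299). Icam1, an adhesion molecule with a dim probe set, differed by 0.77 at 2 h (adjusted p = 0.345), and Mmp14, a membrane protease, by -0.43 at 0 h (adjusted p = 0.221).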

How the data were processed

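The authors hybridised RNA from MLO-Y4 cells to Affymetrix Mouse Genome arrays and deposited log2 values made with RMA, per the labels and the submitters' processing notes. RMA corrects background, gives all arrays one distribution and summarises the probes of a probe set, and its version is not given in the sources used here. The labels give 4 times, whereas the study's methods describe the 2 h time only. The 22690 probe sets ranged from 2.02 to 14.11 and array medians from 6.71 to 6.80. The platform annotation gave 1 gene symbol for 20380 of them, several for 691 and none for 1555, beside 64 controls. The brightest probe set by mean stood for each of 12393 genes. Arrays were grouped by label, 3 to a group, and the number of arrays limits the precision.

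Flow was compared with sham in a linear model with 8 groups over all 24 arrays (lmFit and eBayes of limma 3.58.1, R 4.3.3), with Benjamini-Hochberg adjustment over all genes and a threshold of 0.05. The spread is shared over groups. Two-sided permutation tests used 100000 resamples over 12 arrays and every ordering over 6. A gene or array at under 6 was called dim, a limit set for description. The model was tested on simulated data with known changes. Noise there was independent from array to array, so this does not show how the model performs on arrays that fall into clusters. Alternatives were array weights, replicate blocks, robust and trended moderation, centring, a further quantile normalisation, a filter on dim genes, other uses of probe sets, the arrays of 1 time alone, control differences as covariates, and each array left out. Leaving out pairs of arrays that lie in another cluster than the rest was chosen after seeing the data. The members, gene lists and tests were chosen with earlier results of these data known. Named genes were the members, the 5 most alike to each and 2 genes a list by smallest p for each time, of which the text gives a part. The bone genes Spp1 and Bglap had no probe set with 1 symbol, nor had Atf1, Crtc1, Dusp5 and Csrnp1. Promoter windows came from RefSeq (GRCm38.p6) for 4 of the 6 members. The RNA-Seq part of the study was not used here.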

Additional observations from a re-analysis of the deposited data

Results flagged for a closer look

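The dim second probe set of Nr4a3, which stayed under 6 on all arrays, moved in opposite directions at different times. At 8 h all arrays labelled flow lay above all labelled sham (difference 0.2613), and at 24 h every flow array was below every sham array (difference -0.181). The test of whether the difference changed with time gave an unadjusted p of 0.0146 and an adjusted p of 0.114 over all probe sets in limma, so the change with time did not pass the threshold. The brighter Nr4a3 probe set differed by 0.02 and -0.03 at these times. By the probe sets that represent the genes, groups were apart in either direction for 12.9% of all genes at 8 h and 19.8% at 24 h.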

How the results depend on the processing

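Of 278 member differences under alternatives other than leaving out 1 array, 258 kept their direction and 7 passed the threshold, all 7 with array weights in limma: Nr4a1 at 0 h (-0.56), Nr4a2 at 2 h (0.87), Egr1, Nr4a1 and Nr4a2 at 8 h (1.72, 1.56 and 0.95) and Egr1 and Egr2 at 24 h (-3.72 and -2.93). Array weights, which give arrays unlike their group less weight, called 1, 1, 3 and 2 members at 0, 2, 8 and 24 h, and 4 members in each of the F-test over times, the test of change with time, the test of times among sham arrays and the test of all 8 labels. Over all genes they called 2330, 2312, 3151 and 2361 at the 4 times and 6024, 5955, 4675 and 6828 in those tests, and 53 for the mean over the times; the cause was not tested. At 2 h 1 gene was called after quantile normalisation again, 2 after centring and 1 when the probe sets of a gene were averaged, and at 0 h 1 with every probe set tested, which called 198 for times among sham arrays and 326 for the 8 labels. The control covariates called 18 for times among sham arrays.

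Direction turned for 20 of these differences, most often of Egr3 and Nr4a3, whose differences were near 0, but also of larger ones at 0, 8 and 24 h. Quantile normalisation gave Egr3 0.0057 at 2 h and -0.057 at 24 h and Nr4a3 -0.024 at 8 h, and centring gave Egr3 0.043 at 2 h and -0.061 at 24 h. Array weights gave Egr1 0.027 and Egr3 0.0072 at 2 h and Nr4a3 -0.022 at 8 h. The covariates gave Egr1 0.50, Egr2 0.056 and Nr4a2 0.060 at 0 h. Without sham 24 h replicates 1 and 2 the 24 h differences were -0.026 for Egr3, 0.15 for Nr4a1, 0.36 for Nr4a2 and 0.069 for Nr4a3. Without flow 0 h replicates 2 and 3 Egr3 was at 0.055 and Nr4a3 at 0.019, and without flow 8 h replicates 2 and 3 Egr1 was at -0.024, Egr2 at -0.10 and Nr4a2 at -0.025. The filter on dim genes left 7971 and dropped Egr2.

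Replicate numbers gave no clear sign of a pairing of the arrays. The deviations of same-numbered flow and sham arrays from their group means correlated from -0.346 to 0.192, with 2 of 12 pairs over 0.1. The paper describes paired sham controls, but the labels do not say which arrays belong together. With the replicate block within a time 0 members were called, and Nr4a1 at 8 h kept 1.04 (adjusted p = 0.218 in limma). With the number as a block over all times 18 genes were called for times among sham arrays and 40 for the 8 labels.

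With each array left out in turn, 130 of 144 member differences kept their direction and 4 passed the threshold. Where 2 arrays of a group were left out together instead, the 1 array that remained is assumed to vary like the other groups. Members called ran from 0 to 1 at 8 h, 0 to 2 at 24 h, 0 to 4 for the F-test over times, 0 to 4 for change with time, 0 to 2 for times among sham arrays and 0 to 3 for the 8 labels. Genes called ran from 0 to 1 at 0 h, 0 to 117 at 2 h (without sham 2 h replicate 3), 0 to 672 at 8 h (without flow 8 h replicate 1) and 0 to 278 at 24 h (without sham 24 h replicate 3). They ran from 0 to 1394 for the F-test, 0 to 2045 for change with time, 14 to 410 for times among sham arrays and 23 to 867 for the 8 labels. Differences that turned ran, for Nr4a3, from -0.094 to 0.0027 at 0 h, -0.098 to 0.096 at 2 h, -0.041 to 0.079 at 8 h and -0.075 to 0.0036 at 24 h. They ran for Egr1 from -0.52 to 0.29 and for Egr3 from -0.070 to 0.020 at 2 h, and at 24 h for Egr3 from -0.049 to 0.054 and for Nr4a2 from -0.42 to 0.14.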
